A study of Homo sapiens with 15 samples.

Results

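Histone marks were examined at 9 genes of the Hippo signalling output, VGLL2, VGLL3, VGLL4, TEAD1, TEAD2, TEAD3, TEAD4, YAP1 and WWTR1, in parental MDA-MB-231 cells and in their lung-metastatic and brain-metastatic derivatives. The genes were followed through every H3K4me3 peak within 5 kb of a start of one of their protein-coding transcripts and every H3K27ac peak within 100 kb whose nearest protein-coding start was theirs. This gave 15 of the 22572 consensus H3K4me3 peaks and 108 of the 62195 consensus H3K27ac peaks. VGLL2 was chosen by its measured loss of H3K4me3 in the brain-metastatic cells, so its values in comparisons with those cells are given as a description, without a test.

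MDA-MB-231 is a human breast cancer line that lacks hormone receptor and HER2 expression. The groups were the parental line (Par), LM2, a sub-population selected for metastasis to lung, and BrM2, a sub-population selected for metastasis to brain, all untreated, grown in medium with 10% serum and fixed in 1% formaldehyde. Each line was represented by 2 libraries for each mark, counted as reads under consensus peaks, with 1994996 to 9839629 reads in peaks per library. Each line is a single cell population, so the comparisons are between these populations rather than between independently derived metastatic lines.

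The Hippo pathway is a kinase cascade that restrains growth by keeping the coactivators YAP1 and WWTR1 (also called TAZ) in the cytoplasm. Neither coactivator binds DNA by itself; in the nucleus both act through the TEAD transcription factors, which recognise the letters CATTCC, often near sites of the AP-1 factors (TGANTCA). The VGLL proteins bind TEAD factors as well: VGLL4 competes with YAP1 and represses TEAD output, whereas VGLL2 and VGLL3 are vestigial-like cofactors known from muscle and mesenchymal cells. H3K4me3 marks active and poised gene starts and H3K27ac marks active starts and enhancers. A read count reports neither protein nor transcript, and a change in the share of cells that carry a mark cannot be told apart from a change in the mark per cell.

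The reference sequences at a pair of places where the marks differed between the lines are given first (hg19, 5′ to 3′, in lower case, with matches to CATTCC or TGANTCA on either strand in capitals). They are the middle 300 bases of the TEAD4 intronic H3K4me3 peak that was highest in BrM2, chr12:3073101-3073400 on the plus strand, and the 250 bases upstream of the internal VGLL4 start that gained H3K27ac in LM2, chr3:11651979-11652228 on the minus strand.
TEAD4 intron: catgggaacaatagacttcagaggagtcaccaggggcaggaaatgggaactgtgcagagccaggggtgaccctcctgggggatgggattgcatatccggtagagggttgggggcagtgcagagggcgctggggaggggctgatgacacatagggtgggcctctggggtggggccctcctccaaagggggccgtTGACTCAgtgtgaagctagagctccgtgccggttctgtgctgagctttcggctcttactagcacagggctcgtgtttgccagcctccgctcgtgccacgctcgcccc
VGLL4 internal start: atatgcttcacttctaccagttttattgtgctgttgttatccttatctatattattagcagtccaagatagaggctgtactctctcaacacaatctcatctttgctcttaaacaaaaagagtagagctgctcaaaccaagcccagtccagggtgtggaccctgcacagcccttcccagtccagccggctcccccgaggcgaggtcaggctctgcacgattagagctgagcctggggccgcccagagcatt

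The TEAD4 stretch is intronic, has 62.7% G and C with 11 CpG dinucleotides against a median of 60.7% G and C over the same window of all H3K4me3 peaks, and holds a single AP-1 match and no TEAD match. For comparison, 13.0% of the central 300 bases of all H3K4me3 peaks hold CATTCC and 8.0% hold TGANTCA. The VGLL4 stretch has 50.4% G and C with 5 CpG dinucleotides and holds neither motif, which 10.7% and 5.1% of the 250-base stretches upstream of 78569 protein-coding transcript starts do. As neither sequence holds a TEAD match, no overlap between the motifs was possible.

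H3K4me3 at the 9 genes covered a wide range of levels. Counts per 1000000 reads in peaks (CPM) are compared between genes only per kb of peak, and the peak with the highest mean CPM was taken for each gene. TEAD3, which encodes one of the DNA-binding factors, had the highest level in Par, with 107 and 72.7 CPM per kb in the 2 libraries and a mean above 99.9% of 13369 peaks within 2 kb of protein-coding starts. The start of YAP1 followed with 77.9 and 61.4 CPM per kb, in a range that overlapped that of TEAD3. VGLL4 (56.4 and 42.3), VGLL3 (46.9 and 37.7) and TEAD1 (40.6 and 32.6 CPM per kb) followed below YAP1 and above WWTR1 (32.5 and 26.5 CPM per kb), and VGLL3 overlapped both VGLL4 and TEAD1. TEAD4, at 23.5 and 28.0 CPM per kb, overlapped WWTR1 and lay near the median promoter peak of 24.1 CPM per kb. The lowest levels in Par were those of VGLL2 (20.5 and 17.7) and TEAD2 (11.5 and 19.9 CPM per kb), which overlapped each other, and the TEAD2 peak also covers the start of the divergent gene DKKL1. The level of VGLL2 comes from an exonic peak 4900 bp downstream of its start, because no consensus H3K4me3 peak covers the start itself.

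**Figure D1:**
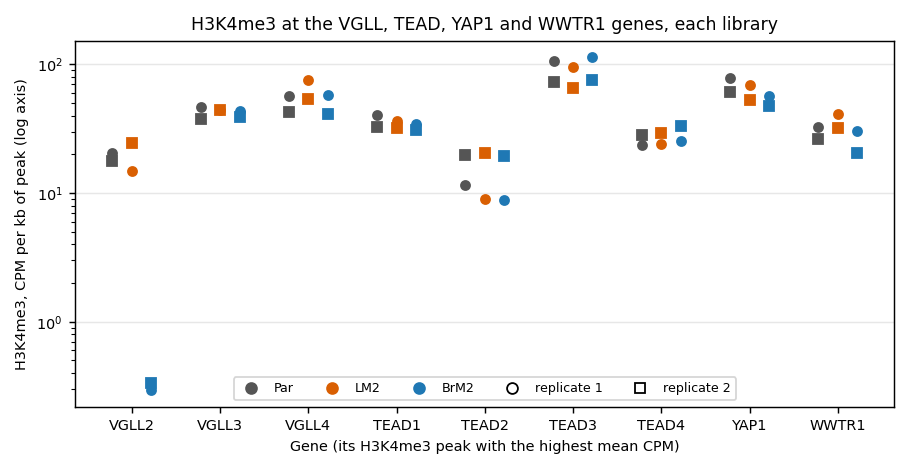
H3K4me3 at the peak with the highest mean CPM of each of the 9 genes, as CPM per kb of peak on a log axis, one point per library (circles, replicate 1; squares, replicate 2; grey, Par; orange, LM2; blue, BrM2). The 2 BrM2 libraries at VGLL2, at 0.295 and 0.335 CPM per kb, lie far below all other points, and at the other 8 genes the lines lie close together.

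Few H3K4me3 peaks of these genes passed between the lines in the fit with line as the only factor. None of the 15 H3K4me3 peaks passed the DESeq2 Wald test at an adjusted p under 0.05 between LM2 and Par, where 2.51% of all tested H3K4me3 peaks did. The VGLL2 peak, whose loss in BrM2 brought the gene in, is left out of the counts with BrM2. Of the 14 other peaks, 1 passed in BrM2 against Par (TEAD4, higher), where 3.61% of all peaks did, and 0 passed in BrM2 against LM2, where 3.18% of all peaks did. Libraries with the same replicate number deviated together across the lines. With the replicate number as a block in the model the counts became 5 of 15, 3 of 14 and 5 of 14. In that fit 14.4%, 17.7% and 22.0% of all H3K4me3 peaks passed.

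The VGLL2 exonic peak (chr6:117591621-117592360) held 53 and 88 reads in the Par libraries, 48 and 179 for LM2 and 1 and 2 for BrM2. In CPM these were 15.2 and 13.1, 11.02 and 18.2, and 0.218 and 0.248. Both BrM2 libraries lay far below all 4 others, and Par and LM2 overlapped. The pooled level in Par was 58.3 times that in BrM2, with a 95% counting interval of 19.5 to 286 that covers counting error only, and that in LM2 was 67.4 times that in BrM2 (22.8 to 329). Because VGLL2 was chosen by this loss, the intervals are not a test of it. Between LM2 and Par the log2 fold change was 0.05 ± 0.48 (SE, n = 2 per line), with a 95% interval of -0.89 to 0.99. The 23 other H3K4me3 peaks within 2.5 Mb had a median log2 fold change of -0.10 in BrM2 against Par.

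H3K27ac around VGLL2 was lower in BrM2 at the same exon and farther upstream, but not throughout the locus. At the exon (chr6:117591778-117592307) the counts were 15 and 19 in Par, 17 and 21 for LM2 and 2 and 1 for BrM2, so that Par held 8.16 times the BrM2 level (counting interval 2.57 to 41.5). At chr6:117558117-117559493, 27228 bp upstream of the start, they were 33 and 16, 29 and 14, and 3 and 3, a Par level 5.88 times that of BrM2 (2.52 to 16.8). Neither BrM2 library overlapped Par or LM2 at these 2 peaks. The strongest H3K27ac peak assigned to VGLL2, 94504 bp upstream (chr6:117487658-117492217), ran the other way, with 20.5 and 15.7 CPM in Par, 22.6 and 29.0 for LM2 and 28.0 and 34.6 for BrM2. The fourth peak, between them, held at most 2.55 CPM in any library. LM2 and Par did not differ by the test at any of the 3 VGLL2 H3K27ac peaks that were tested, with log2 fold changes of -0.11 ± 0.76, -0.57 ± 0.68 and 0.44 ± 0.36 in the order given.

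TEAD4, the TEAD gene with called peaks, carried a second peak of both marks in an intron, separate from the peak at its start. The intronic H3K27ac peak (chr12:3071825-3074321) rose from 2.51 and 2.35 CPM in Par to 13.3 and 10.9 for LM2 and 27.8 and 21.1 for BrM2. The 3 lines did not overlap at this peak. LM2 exceeded Par by 2.26 ± 0.51 on the log2 scale, 4.79-fold (DESeq2 adjusted p = 0.00105), and BrM2 exceeded Par by 3.34 ± 0.51, 10.1-fold (adjusted p = 2.71e-08). BrM2 exceeded LM2 by 1.08 ± 0.42, with a 95% interval of 0.27 to 1.90, and this step did not pass after adjustment (adjusted p = 0.152). The call in LM2 was lost without Par replicate 1 (2.30, adjusted p = 0.0645), without Par replicate 2 (2.22, adjusted p = 0.0577) and without LM2 replicate 1 (2.12, adjusted p = 0.123), whereas that in BrM2 held in each of the 13 alternatives. The 116 other H3K27ac peaks within 2.5 Mb had median log2 fold changes of -0.15 in LM2 and in BrM2 against Par.

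H3K4me3 at the same TEAD4 intron (chr12:3072473-3074027) held 0 and 5 reads in Par, 6 and 33 for LM2 and 29 and 85 for BrM2, which corresponds to 0 and 0.745, 1.38 and 3.35, and 6.33 and 10.5 CPM. The lines again did not overlap and stood in the same order as for H3K27ac. BrM2 exceeded Par by 4.20 ± 0.96 (adjusted p = 0.000947), and the pooled counts gave 18.4 times the Par level with a counting interval of 7.65 to 57.7. This call was lost without Par replicate 2, when the only Par library left had no read (7.08, adjusted p = 0.0797), and without BrM2 replicate 2 (4.03, adjusted p = 0.128). LM2 exceeded Par by 2.47 ± 0.99 without passing (adjusted p = 0.245), and did pass with the replicate block (2.56, adjusted p = 0.0470, range over the alternatives 0.00198 to 0.870). BrM2 exceeded LM2 by 1.73 ± 0.72 (adjusted p = 0.242), which also passed with the block (1.82, adjusted p = 0.0259, range 4.75e-05 to 1.00). The peak at the TEAD4 start did not show this pattern, with 105 and 125 CPM of H3K4me3 in Par, 107 and 130 for LM2 and 114 and 148 for BrM2, and with 29.4 and 62.1, 34.7 and 59.3, and 33.1 and 74.2 CPM of H3K27ac.

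VGLL4, the TEAD-binding repressor, had 15 annotated protein-coding starts and the most H3K4me3 peaks of the 9 genes, 6, with 23 H3K27ac peaks. One of its starts inside the gene gained H3K27ac in LM2 alone among the 3 lines. This peak (chr3:11650358-11653142) held 2.51 and 3.39 CPM in Par, 18.6 and 20.5 for LM2 and 3.31 and 4.01 for BrM2. LM2 lay above both other lines without overlap, whereas BrM2 overlapped Par. LM2 exceeded Par by 2.67 ± 0.53, 6.36-fold (adjusted p = 8.06e-05), and BrM2 was below LM2 by 5.18-fold (log2 fold change -2.37 ± 0.54, adjusted p = 0.00155). BrM2 against Par gave 0.30 ± 0.61, with a 95% interval of -0.89 to 1.49. The first of these calls was lost without LM2 replicate 2 (2.58, adjusted p = 0.0529). The second was lost without either LM2 library (-2.46 and -2.29, adjusted p = 0.136 and 0.156) and without either BrM2 library (-2.21 and -2.49, adjusted p = 0.386 and 0.0566), so it needed all 4.

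A weak H3K4me3 peak stood at the same VGLL4 start (chr3:11651631-11652401), with 1 and 0 reads in Par, 6 and 42 for LM2 and 2 and 1 for BrM2. The LM2 libraries were again above all others, at 1.38 and 4.27 CPM. The pooled LM2 level was 34.5 times that of Par (counting interval 5.90 to 1391) and 14.3 times that of BrM2 (4.60 to 71.6). The test did not pass (adjusted p = 0.155 against Par and 0.207 for BrM2 against LM2), but did with the replicate block (adjusted p = 0.0427, range 1.86e-05 to 0.409, and 0.0421, range 1.23e-05 to 1.00). An exon of a long noncoding RNA gene on the plus strand overlaps this peak, and reads from chromatin carry no strand, so the mark cannot be assigned to either gene.

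**Figure D2:**
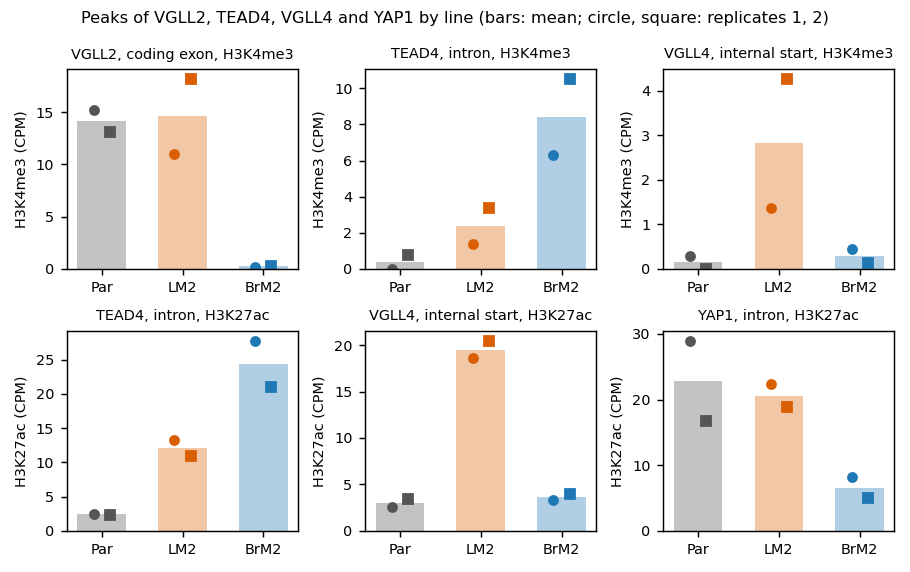
CPM by line at 6 peaks of VGLL2, TEAD4, VGLL4 and YAP1, with bars for the mean of 2 libraries and points for replicate 1 (circle) and replicate 2 (square), on linear axes from 0. VGLL2 was nearly empty in BrM2, H3K27ac at the TEAD4 intron was higher in LM2 and BrM2 than in Par, the VGLL4 internal start was high only in LM2 among the lines, and the YAP1 intron was lowest in BrM2.

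The main VGLL4 starts moved less. H3K4me3 at the strongest one (chr3:11759047-11762549) was 198 and 148 CPM in Par, 263 and 190 for LM2 and 202 and 144 for BrM2. Replicate 1 was above replicate 2 in every line, so the lines overlapped, and LM2 exceeded Par by 0.43 ± 0.40 (adjusted p = 1.00). Within replicate numbers LM2 was higher in both pairs, and the blocked fit gave 0.41 (adjusted p = 0.000557, range 8.46e-06 to 1.00) and -0.48 for BrM2 against LM2 (adjusted p = 1.42e-05, range 1.56e-08 to 1.00). The strongest VGLL4 H3K27ac peak, at another start (chr3:11606917-11616250), had 57.7 and 52.5 CPM in Par, 93.3 and 98.7 for LM2 and 61.4 and 67.2 for BrM2. LM2 exceeded Par there by 0.74 ± 0.27 without passing (adjusted p = 0.110), and passed with the block (0.73, adjusted p = 0.0192, range 0.000972 to 0.616). A weaker H3K4me3 peak at chr3:11622614-11624409 held 2.29 and 2.53 CPM in Par, 4.13 and 12.1 for LM2 and 5.68 and 7.19 for BrM2. LM2 exceeded Par there by 1.75 ± 0.65 (adjusted p = 0.168), or by 0.98 without LM2 replicate 2 (adjusted p = 0.841), and passed with the block (1.73, adjusted p = 0.0239, range 4.20e-05 to 1.00). The other 3 VGLL4 H3K4me3 peaks passed in no comparison with DESeq2, with or without the block. Of these, chr3:11682084-11685736 held 54.9 to 87.6 CPM, chr3:11609161-11610895 held 1.72 to 10.3 CPM and chr3:11642351-11642799 held 0 to 2.73 CPM over the 6 libraries. With the block in edgeR the second passed in LM2 against Par (0.95, adjusted p = 0.0295, range 0.0295 to 1.00) and the third in BrM2 against Par (2.85, adjusted p = 0.00342, range 0.00342 to 1.00).

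YAP1, one of the coactivators, lost H3K27ac in BrM2. An intronic H3K27ac peak (chr11:102026266-102032303) held 29.0 and 16.7 CPM in Par, 22.3 and 18.9 for LM2 and 8.16 and 5.01 for BrM2. Both BrM2 libraries were below the 4 others, and Par and LM2 overlapped. BrM2 was 3.36-fold below Par (log2 fold change -1.75 ± 0.46, adjusted p = 0.00594) and 2.90-fold below LM2 (-1.53 ± 0.46, adjusted p = 0.0339), whereas LM2 against Par gave -0.21 ± 0.41. The call against Par was lost without Par replicate 1 (-1.30, adjusted p = 0.319) and without either BrM2 library (-2.18 and -1.48, adjusted p = 0.0960 and 0.194). The call against LM2 was lost without Par replicate 1 (-1.54, adjusted p = 0.0684), without either LM2 library (-1.44 and -1.64, adjusted p = 0.445 and 0.222), without either BrM2 library (-1.97 and -1.27, adjusted p = 0.370 and 0.506), and once the medians of 5 Mb windows were removed (-1.38, adjusted p = 0.0718).

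The lower BrM2 values ran along the YAP1 gene. Of its 13 H3K27ac peaks, 11 had a log2 fold change below 0 in BrM2 against Par, with a median of -0.27 beside -0.01 over all peaks tested, and 12 of 13 were below 0 against LM2, with a median of -0.48 beside 0.01. These peaks share one locus and the same libraries, so they are not independent. The 126 other H3K27ac peaks within 2.5 Mb of the intronic peak had medians of -0.24 and -0.32, whereas the 20 other H3K4me3 peaks around the YAP1 start had medians of 0.28 and -0.13. DNA copy number was not measured here and its part in these values was not tested. At the YAP1 start, H3K27ac was 185 and 177 CPM in Par, 151 and 179 for LM2 and 121 and 123 for BrM2, with BrM2 below both other lines (-0.57 ± 0.25 against Par, adjusted p = 0.209), and the blocked fit passed (-0.57, adjusted p = 0.0403, range 0.00274 to 0.742). H3K4me3 at the start was 318 and 251, 284 and 214, and 234 and 193 CPM, so that LM2 overlapped both other lines and both BrM2 libraries lay below both Par libraries. BrM2 against Par gave -0.49 ± 0.38 (adjusted p = 0.832), and with the block -0.48 (adjusted p = 9.26e-06, range 1.72e-09 to 1.00). The corresponding values against LM2 were -0.34 ± 0.38 (adjusted p = 0.919) and -0.31 (adjusted p = 0.00625, range 5.26e-05 to 1.00).

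WWTR1, the other coactivator, had its highest H3K4me3 in LM2. The start peak (chr3:149371699-149377145) held 177 and 144 CPM in Par, 225 and 175 for LM2 and 167 and 111 for BrM2. The line ranges overlapped between Par and LM2 and between Par and BrM2, and in each replicate number the order was LM2, Par, BrM2. Log2 fold changes were 0.36 ± 0.39, -0.26 ± 0.39 and -0.62 ± 0.39 for LM2 against Par, BrM2 against Par and BrM2 against LM2, none of which passed (adjusted p = 1.00, 0.996 and 0.650). The blocked fit gave 0.34, -0.30 and -0.64, all of which passed (adjusted p = 0.0136, 0.0369 and 7.28e-08, with ranges of 0.000593 to 1.00, 0.000669 to 1.00 and 2.07e-11 to 1.00). The 20 other H3K4me3 peaks within 2.5 Mb of the start peak had median log2 fold changes of 0.24, 0.06 and -0.35 in the same order. The strongest WWTR1 H3K27ac peak, 20195 bases long (chr3:149288824-149309018), held 141 and 134, 206 and 166, and 165 and 145 CPM. LM2 exceeded Par there by 0.37 ± 0.25 (adjusted p = 0.624).

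None of the peaks of VGLL3, TEAD1, TEAD2 and TEAD3 passed in any comparison with DESeq2, with or without the block. VGLL3, the mesenchymal vestigial-like cofactor, had one H3K4me3 peak at its start (chr3:87039085-87041308) with 104 and 83.9 CPM in Par, 98.2 and 97.9 for LM2 and 96.5 and 87.2 for BrM2. Its log2 fold changes lay between -0.19 and 0.08, whereas the 12 other H3K4me3 peaks within 2.5 Mb had a median log2 fold change of 1.93 in BrM2 against Par. TEAD1 held 295 and 237, 266 and 231, and 250 and 225 CPM of H3K4me3 across its 7268-base start peak, and TEAD3 held 358 and 244, 320 and 219, and 380 and 256. TEAD2 held 37.0 and 64.0, 28.9 and 65.9, and 28.6 and 62.7 CPM. At these 4 genes the H3K4me3 log2 fold changes lay between -0.24 and 0.13 in the 3 comparisons, and the line ranges overlapped except for LM2 and BrM2 at VGLL3. H3K27ac at the TEAD2 start was 26.2 and 37.1 CPM in Par, 22.3 and 30.6 for LM2 and 17.3 and 20.1 for BrM2, and the log2 fold change of BrM2 against Par was -0.77 ± 0.37 (adjusted p = 0.278), which passed with the block in edgeR (-0.74, adjusted p = 0.0276, range 0.0276 to 0.864). H3K27ac at the TEAD3 start was 115 and 112 CPM in Par, 73.3 and 87.8 in LM2 and 109 in each BrM2 library, and the log2 fold change of LM2 against Par was -0.56 ± 0.26 (adjusted p = 0.296), which passed with the block in edgeR (-0.56, adjusted p = 0.00819, range 0.00819 to 1.00). The value for BrM2 against LM2, 0.50 ± 0.26, passed in that fit as well (0.49, adjusted p = 0.0269, range 0.0269 to 1.00). The strongest H3K27ac peak of VGLL3 (chr3:87038894-87047033) held 76.2 and 63.4 CPM in Par, 57.4 and 74.7 for LM2 and 44.9 and 64.7 for BrM2, and that of TEAD1 (chr11:12694490-12702788) held 109 and 150, 109 and 160, and 99.2 and 169 CPM. The lines overlapped at the TEAD1 peak, and at the VGLL3 peak BrM2 overlapped both other lines.

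Over all 9 genes, few of the 108 H3K27ac peaks passed. Low counts left 76, 80 and 74 peaks tested in LM2 against Par, BrM2 against Par and BrM2 against LM2. In LM2 against Par 2 passed, the TEAD4 intron and the VGLL4 internal start, where 3.63% of all tested H3K27ac peaks did. In BrM2 against Par 2 passed, the TEAD4 intron and the YAP1 intron, where 5.29% of all did. In BrM2 against LM2 2 passed, the VGLL4 internal start and the YAP1 intron, where 2.94% of all did. The shares of tested members, 2.63%, 2.50% and 2.70%, were below those of all peaks. With the replicate block the counts were 3, 4 and 3, where 5.44%, 8.13% and 6.17% of all passed. Another YAP1 intronic peak (chr11:102038498-102044156) passed with the block in BrM2 against Par and against LM2, with mean levels of 95.1, 88.7 and 53.4 CPM in Par, LM2 and BrM2.

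**Figure D3:**
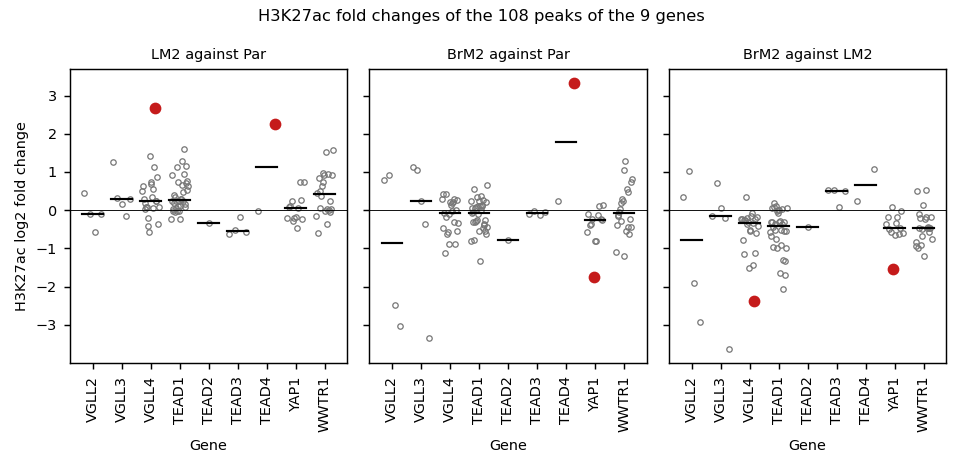
H3K27ac log2 fold change of each of the 108 peaks, by gene, in the 3 comparisons, with peaks ordered by position within a gene, a horizontal bar at the gene's median and filled red points for peaks with a DESeq2 adjusted p under 0.05. Of the 108 values, 76 lay above 0 in LM2 against Par and 85 lay below 0 in BrM2 against LM2. Peaks too low to be tested are included, and the corresponding shares of all H3K27ac peaks were not counted.

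Counted over all H3K27ac peaks of a gene, called or not, the signs differed by gene. In LM2 against Par, 28 of 34 TEAD1 peaks, 19 of 23 VGLL4 peaks and 16 of 22 WWTR1 peaks had a log2 fold change above 0, with medians of 0.26, 0.24 and 0.42, whereas all 4 TEAD3 peaks lay below 0 with a median of -0.55. In BrM2 against LM2 the same 3 genes had 26, 22 and 19 peaks below 0, with medians of -0.40, -0.34 and -0.46, and the TEAD3 peaks were all above 0 with a median of 0.51. The 2 comparisons share the LM2 libraries. Peaks of a gene also share one locus, so they are not independent. The counts include peaks too low to be tested. In LM2 against Par 21 of the 34 TEAD1 peaks, 17 of the 23 VGLL4 peaks and 13 of the 22 WWTR1 peaks were tested. The shares of all H3K27ac peaks above and below 0 were not counted. The median of all 108 peaks was 0.23 and -0.36 in these comparisons, beside -0.04 and 0.01 over all peaks tested. The 249 other H3K27ac peaks within 2.5 Mb of the TEAD3 start had a median of -0.24 in LM2 against Par and 0.41 in BrM2 against LM2. For TEAD1 (195 peaks around its start) these regional medians were 0.08 and -0.05, for WWTR1 (146 peaks) 0.21 and -0.10.

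TEAD and AP-1 letters were counted over whole peaks. CATTCC occurred 0.617 times per kb in the 108 H3K27ac peaks and 0.625 times per kb in all H3K27ac peaks, and TGANTCA 0.424 and 0.441 times per kb. In the 15 H3K4me3 peaks the rates were higher than in all H3K4me3 peaks, with 0.701 and 0.525 per kb for CATTCC and 0.429 and 0.255 per kb for TGANTCA, a difference that was not tested. By gene, the 34 TEAD1 H3K27ac peaks held CATTCC 0.754 times and the 13 YAP1 peaks 0.445 times per kb. The peaks that differed most between the lines held few TEAD matches. The VGLL4 internal start held none of either motif in either mark. The TEAD4 intronic H3K27ac peak held 2 AP-1 matches and no TEAD match, and the YAP1 intronic peak held 1 TEAD match in 6038 bases and no AP-1 match. The absence of a match says only that these letters are not in these windows.

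H3K4me3 at the upstream part of the pathway gave no calls in the fit without the replicate block. Of 26 listed Hippo regulators, which include the kinases STK3, STK4, LATS1 and LATS2, their adaptors and the scaffolds and cadherins upstream of them, 24 had an H3K4me3 peak within 5 kb of a start. None of the 24 passed in any of the 3 comparisons, where 2.51%, 3.61% and 3.18% of all tested H3K4me3 peaks did. At such shares the absence of calls among 24 peaks says little about the regulators. Their log2 fold changes ran from -0.64 to 1.05, with medians of 0.06, -0.12 and -0.02. With the replicate block 5, 6 and 9 of them passed, at background shares of 14.4%, 17.7% and 22.0%. DCHS1, an upstream cadherin, and VGLL1, the fourth vestigial-like gene, had no H3K4me3 peak within 5 kb.

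Among 22 listed targets of YAP and TEAD, 1 was lower in LM2 than in Par, none passed in BrM2 against Par, and 2 were higher in BrM2 than in LM2, with medians of 0.01, 0.12 and 0.02. Over all H3K4me3 peaks 2.51%, 3.61% and 3.18% passed in these comparisons. ANKRD1, a much used target gene that encodes an ankyrin repeat protein, held 30.1 and 46.0 CPM in Par, 6.89 and 20.3 for LM2 and 68.5 and 72.4 for BrM2 (chr10:92676654-92681090). The 3 lines did not overlap. The log2 fold change was -1.47 ± 0.42 for LM2 against Par (adjusted p = 0.0221) and 2.32 ± 0.41 for BrM2 against LM2 (adjusted p = 3.90e-06), while BrM2 against Par gave 0.85 ± 0.40 (adjusted p = 0.393). MYOF, a membrane repair protein gene, held 86.0 and 107, 56.0 and 66.8, and 115 and 142 CPM (chr10:95236995-95243331), and was higher in BrM2 than in LM2 by 0.97 ± 0.30 (adjusted p = 0.0434). The ANKRD1 difference between BrM2 and LM2 held in all 13 alternatives, whereas its LM2 call was lost in 7 of them, with log2 fold changes from -2.25 to -1.04 over the alternatives. It was lost with edgeR and without either Par library, LM2 replicate 1 or either BrM2 library, where the adjusted p lay between 0.0543 and 0.595. The MYOF call was lost in 8, with edgeR and without any one of the 6 libraries, at log2 fold changes of 0.93 to 1.02. Both genes are on chromosome 10, and with the medians of 5 Mb windows removed the LM2 value of ANKRD1 was -1.05 (adjusted p = 0.305) and the MYOF value 0.66 (adjusted p = 0.358). CCN1 and CCN2, matricellular genes much used as YAP readouts and named here after their values were seen, did not pass. CCN1 held 349 and 366, 305 and 322, and 337 and 333 CPM, and CCN2 held 132 and 106, 120 and 104, and 80.5 and 84.3 CPM. With the replicate block 4, 7 and 8 of the 22 targets passed, where 14.4%, 17.7% and 22.0% of all peaks did. Of these, 2, 3 and 3 were higher and 2, 4 and 5 lower. CCN2 was among the lower ones in BrM2 against Par and in BrM2 against LM2, with log2 fold changes of -0.57 and -0.52. AXL, another listed target, was among the higher ones in the same comparisons, with 0.57 and 0.73.

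**Figure D4:**
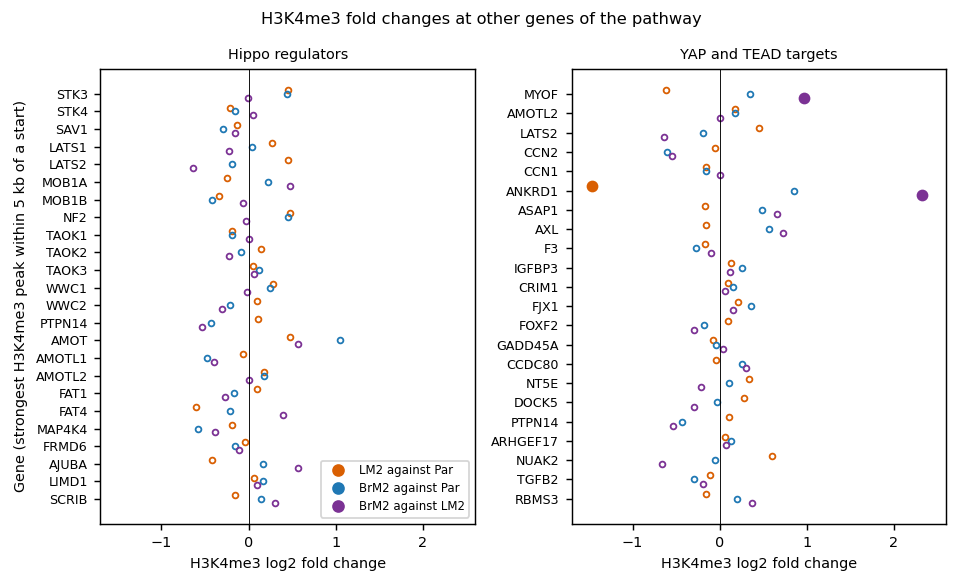
H3K4me3 log2 fold change at the strongest peak of each of 24 Hippo regulators (left) and 22 YAP and TEAD targets (right) for LM2 against Par (orange), BrM2 against Par (blue) and BrM2 against LM2 (purple), with filled points for a DESeq2 adjusted p under 0.05. The filled points are ANKRD1 in 2 comparisons, at -1.47 and 2.32, and MYOF at 0.97.

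Likeness to VGLL2 and VGLL3 was measured over all genes with a peak. Across the 6 libraries the H3K4me3 profiles, as log2(CPM + 1), most alike that of VGLL2 among 13497 genes were COL5A1 (Pearson r = 0.997), WNT9A (0.997), PRAG1 (0.995), and MED22 and RPL7A, which share a peak (0.992). PRAG1 went from 136 and 143 CPM in Par and 127 and 139 in LM2 to 15.7 in both BrM2 libraries, whereas COL5A1 went from 146 to 166 CPM in Par and LM2 to 95.8 and 93.3. VGLL3 was most alike FLYWCH1 (0.966), SIK1 (0.956), SLC48A1 (0.949), MID2 (0.949) and KLF13 (0.946). These coefficients rest on 6 libraries that share depth and replicate effects and are descriptions only.

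Lineage markers were read in the same way. VIM, CD44 and ZEB1, markers of the mesenchymal-like state of MDA-MB-231, carried 103 to 264 CPM of H3K4me3 in every library. The 7 luminal epithelial markers carried 2.01 to 77.9 CPM. These CPM are not scaled to peak length. Per kb in Par, VIM, CD44 and ZEB1 lay above 71.1%, 32.6% and 97.8% of the promoter peaks. The luminal markers lay above 7.02% (CDH1) to 41.8% (CLDN4), so CD44 lay below CLDN4. CLDN4 was lower and ESR1 higher in both derivatives than in Par, and CLDN7 was higher in BrM2 than in both other lines. The leukocyte and liver markers PTPRC and ALB had no H3K4me3 peak within 5 kb. The endothelial marker PECAM1 was not matched to a start in the annotation and was not read. At the border of the H3K4me3 window, the member farthest from a start was the VGLL2 exonic peak itself, and the nearest peak left out was a VGLL4 peak 8724 bp from a start with at most 2.24 CPM. For H3K27ac the farthest member was a TEAD1 peak at 98460 bp with 2.48 to 6.65 CPM, and the nearest left out was a VGLL3 peak at 193871 bp with 33.2 to 67.5 CPM.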

How the data were processed

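H3K4me3 and H3K27ac ChIP-seq was performed in 3 cell lines with 2 libraries per line and mark. The 3 input samples were not analysed here. The authors trimmed reads with Trimmomatic 0.32, aligned them to hg19 with Bowtie2 2.3.4.3, called broad peaks with MACS2 2.1.2 on the reads of all libraries of an antibody merged, and deposited raw read counts per consensus peak made with featureCounts 1.6.0 (reads extended to 150 bases). The counts were used as deposited.

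CPM was computed from the total in peaks (1994996 to 9839629 reads per library), which sets the precision of low peaks. Gene starts were taken from GENCODE annotation of hg19. DESeq2 1.42.0 (R 4.3.3) was fitted to all peaks of a mark and all 6 libraries with line as the factor, as a two-sided Wald test with Benjamini-Hochberg adjustment over all peaks and default independent filtering, and a peak was called at an adjusted p under 0.05. Values after ± are standard errors of log2 fold changes. Groups were taken from the sample labels. The study describes the replicates as biological, the labels do not say how they were grown, and p-values measure only the spread between these libraries. Ratios of pooled counts have exact 95% binomial intervals and cover counting error only. For VGLL2 they take no account of the choice of the gene by its loss in BrM2.

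Libraries with the same replicate number deviated together, with correlations of the deviations from the line means of 0.843, 0.788 and 0.825 for H3K4me3 (13309 peaks) and 0.407, 0.607 and 0.480 for H3K27ac (20124 peaks). The main calls come from the fit with line as the only factor, which ignores this pairing and leaves the shared deviation in the spread. Peaks that did not pass there can therefore pass once the numbers pair the libraries. The fit with the replicate block treats them so and is given where it changed a call. No label ties a replicate number to a batch or date. The alternatives were edgeR 4.0.16 (TMM, quasi-likelihood) with and without the block, DESeq2 with the block, size factors from total counts or TMM, at least 10 counts in 2 libraries, medians of 5 Mb windows removed, each library left out, and other peak windows. Counts were also simulated without a replicate effect, for BrM2 against Par. The 200 changed peaks per mark were drawn only from peaks above a minimum mean count. Among 22572 H3K4me3 peaks, 26% of changes of 1 and 86% of changes of 2 on the log2 scale were recovered. Among 62195 H3K27ac peaks, 18% and 83% were. The TEAD4 intronic H3K4me3 peak and the H3K27ac peak at the internal VGLL4 start lay below the minimum, so these shares do not apply to them.

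The genes and lists were chosen with earlier results of these data known. Named were, for each gene, the peak with the highest mean CPM in each mark, every called peak whose groups did not overlap, called genes of the lists, and the 5 genes most like VGLL2 and VGLL3 by Pearson r. The other VGLL2 and VGLL4 peaks, the YAP1 peaks that passed with the block, CCN1, CCN2 and AXL were added after their values were seen. One sequence is not reported here.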

Additional observations from a re-analysis of the deposited data

Results flagged for a closer look

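At 2 H3K27ac peaks the derivatives moved differently from Par, by the test of their difference. At the internal VGLL4 start (chr3:11650358-11653142) LM2 was above Par by 2.67 and BrM2 by 0.30 on the log2 scale, a difference of -2.37 for BrM2 against LM2 (DESeq2 adjusted p = 0.00155, range over the alternatives 5.70e-06 to 0.386). At the YAP1 intron (chr11:102026266-102032303) the changes from Par were -0.21 in LM2 and -1.75 in BrM2, a difference of -1.53 (DESeq2 adjusted p = 0.0339, range 0.000285 to 0.506). The cause of either difference was not tested.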

How the results depend on the processing

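Counts of called peaks depended most on the replicate block. With the VGLL2 peak included, whose loss in BrM2 fixed its own calls there, the H3K4me3 counts changed as follows. They are in the order LM2 against Par, BrM2 against Par and BrM2 against LM2. The 0, 2 and 1 calls became 5, 4 and 6 with the block in DESeq2, where 14.4%, 17.7% and 22.0% of all peaks passed. With the block in edgeR they became 7, 7 and 7, where 5903, 7512 and 8720 of all 22572 peaks passed. The narrower window left 0 in both BrM2 comparisons, since the TEAD4 and VGLL2 peaks lie outside it. For H3K27ac the 2, 2 and 2 calls became 12, 10 and 15 with the block in edgeR. In that fit 8213, 9892 and 7803 of all 62195 H3K27ac peaks passed. BrM2 against Par gave 4 with edgeR alone, where 4280 of all 62195 peaks passed. It also gave 4 with the block in DESeq2, where 8.13% of all tested peaks passed. BrM2 against LM2 gave 1 with the medians of 5 Mb windows removed, where 803 of 51342 tested peaks passed. The cause of the higher counts was not tested.

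With each library left out, H3K4me3 calls in BrM2 against Par ranged from 1 (without Par replicate 2 or BrM2 replicate 2) to 2. H3K27ac calls ranged from 1 (without any of the Par or LM2 libraries) to 2 in LM2 against Par, from 1 (without Par replicate 1 or either BrM2 library) to 2 in BrM2 against Par, and from 0 (without any of the LM2 or BrM2 libraries) to 2 in BrM2 against LM2. Where 1 library of a line was left, it was assumed to vary like the others.

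Changes of sign occurred only among log2 fold changes that had not passed. For LM2 against Par with a library left out, VGLL2 ranged from -0.75 to 0.38 in exonic H3K27ac (0.19 without Par replicate 2) and from -0.20 to 0.31 in H3K4me3 (-0.17 without LM2 replicate 2, and -0.21 with window medians removed). The YAP1 intron ranged from -0.55 to 0.24, the VGLL4 peaks at 11642351 and 11759047 from -2.33 to 3.87 and from -0.05 to 0.83, and WWTR1 from -0.06 to 0.69. WWTR1 ranged from -0.73 to 0.12 in BrM2 against Par (0.05 without Par replicate 1), and YAP1 H3K4me3 from -0.66 to 0.09 in BrM2 against LM2. For called peaks and genes, 122 values under an alternative kept their call and direction and 34 lost the call. The kept values include VGLL2 H3K4me3 in BrM2 against Par and against LM2, called in all 13 alternatives each. VGLL2 was chosen by that loss, so its values say nothing about how stable the calls are. Apart from the calls given in the report, the replicate block in DESeq2 changed no call of a peak of the 9 genes. In counts simulated without a replicate effect, changes were placed only in peaks above a minimum mean count. There the fit without the block recovered 26% (H3K4me3) and 18% (H3K27ac) of changes of 1 on the log2 scale in BrM2 against Par. Recovery with the block was not simulated.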
